A study of Homo sapiens with 24 samples.

Results

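The panobinostat effect in JJN3 cells was set against the panobinostat effect in MM1.S cells, gene by gene, so that each gene has 1 value: its log2 fold change over vehicle in JJN3 minus its log2 fold change over vehicle in MM1.S. A positive value means that the drug left the transcript relatively higher in JJN3 than in MM1.S, whether because it rose further in JJN3 or fell further in MM1.S. The value was taken from 12 of the 24 libraries of the series, chosen by their labels: 3 of JJN3 with panobinostat, 3 of JJN3 with vehicle, 3 of MM1.S with panobinostat and 3 of MM1.S with vehicle. JJN3 and MM1.S are established human multiple myeloma lines; the labels give both the genotype wild type, and give JJN3 the p53 status p53-null and MM1.S the status p53-WT. Panobinostat was given at 50 nM for 24 h, in the same culture medium in both lines, and the vehicle was given for the same time and is not named. RNA was polyA-selected and sequenced by 3′ RNA-seq, which reads near the end of each transcript. The other 12 libraries of the series also held CX-5461, an inhibitor of RNA polymerase I. They are used near the end for the panobinostat difference with CX-5461 in both arms. Each line stands for 1 tumour, so p53 status and the other differences between the lines cannot be told apart. The labels do not say whether the 3 libraries of a group came from separate cultures, and the p-values then measure the spread between these libraries, which may be technical.

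Histone deacetylases (HDACs) remove acetyl groups from histones and other proteins and are part of large corepressor complexes. Panobinostat is a hydroxamate that binds the zinc in their catalytic site and blocks most members of the zinc-dependent family; it has been used as a treatment of multiple myeloma. Inhibition typically raises transcripts of genes that are silent in a cell type and lowers those of highly transcribed cell-identity genes. A myeloma cell is a malignant plasma cell: its identity rests on factors such as IRF4, PRDM1, XBP1 and POU2AF1, on surface molecules such as TNFRSF17 (BCMA) and SDC1 (CD138), and on a large secretory apparatus. Both lines are known for a translocation that brings the transcription factor gene MAF under immunoglobulin control.

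The libraries held 4751893 to 6687473 counts, so that a count of 0 in a library allows up to 0.631 CPM (a count relative to library size) at the shallowest, taking 3 counts as the limit. Such limits, and the counting intervals below, hold no other error than that of counting. Levels below are in CPM scaled by TMM, are not divided by gene length, and are compared within a gene. The summed level of 10 plasma cell markers was 3260 to 4020 CPM with panobinostat and 4140 to 5210 CPM with vehicle in JJN3, and 1100 to 1300 CPM with panobinostat and 8880 to 9740 CPM with vehicle in MM1.S. Of these markers CD38 stood near 0 in JJN3, at 0.0568 ± 0.0985 CPM with panobinostat and 0.0666 ± 0.115 CPM with vehicle (mean ± SD, n = 3 each, as for every mean below). Markers of other cell types also differed: the summed erythroid and megakaryocyte markers were at 473 to 967 CPM with panobinostat and 427 to 661 CPM with vehicle in JJN3, and at 6.58 to 7.13 CPM and 16.7 to 20.1 CPM in MM1.S, nearly all of it haemoglobin subunit HBB, while PPBP and PF4 were at 0 in all 12 libraries. Summed T cell markers were at 77.6 to 79.3 CPM with panobinostat and 100 to 157 CPM with vehicle in JJN3, against 1.56 to 2.59 CPM and 2.09 to 2.64 CPM in MM1.S, with CD3D at 0 throughout. The summed monocyte, fibroblast and epithelial markers stood at or below 22.3 CPM in every library, with FCGR3A, CD163, COL3A1, LUM and KRT5 at 0 throughout. The JJN3 panobinostat library numbered 2 had the weakest response of its group: the slope of its change on the MM1.S change was 0.244 (log2 CPM with a prior count of 2), against 0.318 and 0.299 for libraries 1 and 3. In bulk RNA, fewer cells of a kind and less RNA per cell cannot be told apart, and every value is relative to the whole library.

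Panobinostat moved fewer genes and moved them less in JJN3 than in MM1.S. In the edgeR quasi-likelihood test with Benjamini-Hochberg adjustment over 12872 genes (adjusted p under 0.05, as for every call below), 2284 genes rose and 1496 fell in JJN3 (29.4% of genes tested), against 4386 (34.1%) and 3820 (29.7%) in MM1.S (63.8% in all). Among genes that passed, 1299 rose and 229 fell at least 2-fold in JJN3, and 2806 rose and 1985 fell at least 2-fold in MM1.S. Rises of that size thus outnumbered falls in both lines, and JJN3 had few large falls. The main fit had no block for the replicate number, although same-numbered JJN3 libraries deviated together. With that block 2849 genes rose and 2109 fell in JJN3, against 4724 and 4138 in MM1.S, so the JJN3 counts grew more than those of MM1.S. The difference between the lines passed for 4284 genes (33.3%): 2433 above 0 (18.9%) and 1851 below 0 (14.4%), of which 1432 and 1133 were at least 1 log2 unit from 0. The split between the directions depends on the scaling: scaling by library size alone moved the median difference by -0.128 and gave 1994 above and 2270 below 0. The shares of 18.9% above 0 and 14.4% below 0 are the background for the counts of list members below. For members that rose and fell in a line, the background is 17.7% and 11.6% in JJN3, and 34.1% and 29.7% in MM1.S.

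Most of the differences were smaller responses of JJN3. Of the 4284 genes, 2593 changed in MM1.S alone by the calls, 1073 changed in the same direction in both lines but less in JJN3, and 254 changed in JJN3 alone. A further 229 changed in opposite directions, 57 changed in the same direction but more in JJN3, and 78 passed in neither line on its own. Over the 10723 genes measured in both lines (mean of at least 1 CPM over the 6 libraries of each), the JJN3 log2 fold change followed the MM1.S log2 fold change with a slope of 0.335 through the origin; across genes, which are not independent replicates, Pearson's r was 0.609 and Spearman's rho 0.602. The SD of the log2 fold changes over these genes was 0.790 in JJN3 and 1.46 in MM1.S. Of the 6966 genes that passed in MM1.S and were measured in both lines, 5557 (79.8%) had the same sign in JJN3. The 2 effects share no library.

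A second contrast asked which genes lie off that general slope, with the slope taken as fixed: the JJN3 log2 fold change minus 0.335 times the MM1.S log2 fold change. It passed for 1427 of the 10723 genes (13.3%), 980 above the slope (9.14%) and 447 below it (4.17%). Same-numbered JJN3 libraries deviated together, and a fit with the replicate number as a block gave 1499 above and 897 below the slope. The counts also rested on single JJN3 libraries: without the JJN3 panobinostat library 3, 648 lay above the slope, and without library 1, 268 lay below it. Of the 4017 differences that passed among genes measured in both lines, 3033 (75.5%) were not called beyond the slope. A gene above the slope therefore rose further, or fell less, in JJN3 than its MM1.S change scaled by 0.335.

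**Figure D1:**
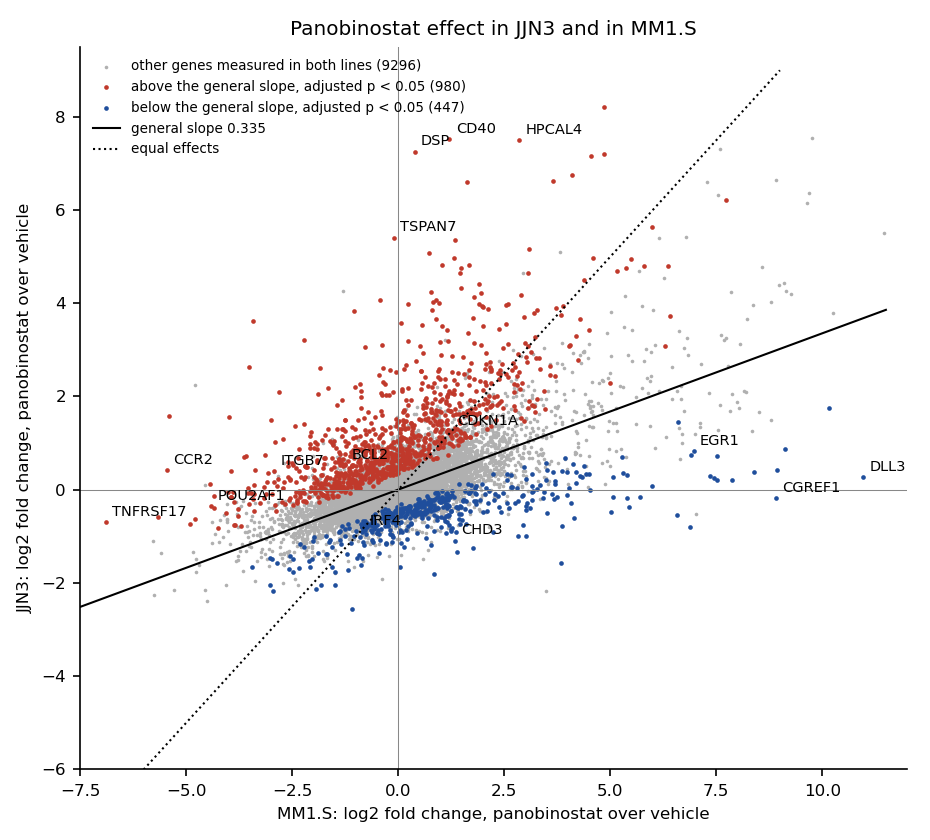
Log2 fold change of panobinostat over vehicle in JJN3 (vertical) against MM1.S (horizontal) for the 10723 genes measured in both lines; red points lie above and blue points below the general slope of 0.335 (solid line) at an adjusted p under 0.05, and the dotted line marks equal effects. Fitted values of genes with 0 counts in a group, such as DSP and DLL3, depend on the prior count and mark direction only; the cloud is flatter than the dotted line, and IRF4 and CDKN1A lie close to it.

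The start regions of 4 genes are shown because their expression values follow patterns described below. Other genes of these patterns, TNFRSF17, POU2AF1, CD40, DLL3, MAFA and MMP9, had no entry among the start regions used. BEX2 and HPCAL4 had 1 each and are not shown, so the 4 windows need not be typical of the patterns. DSP and CEND1 had at most 2 counts over the JJN3 vehicle libraries and rose there, CGREF1 had 0 counts in the MM1.S vehicle libraries and rose there, and CCR2 fell in MM1.S without passing in JJN3. Each is 250 bases before to 50 after the gene's start from RefSeq on GRCh38.p14 (the submitters' notes name hg19 and GRCh37), 5′ to 3′ on the gene's strand, with CG pairs, the sites of DNA methylation in promoters, in capitals. The DSP window (chr6:7541421-7541720, plus strand) held 37 CG pairs, the CEND1 window (chr11:790041-790340, minus strand) 27, the CGREF1 window (chr2:27119079-27119378, minus strand) 29 and the CCR2 window (chr3:46353861-46354160, plus strand) 2, against a median of 25 over the starts of all genes tested.
DSP: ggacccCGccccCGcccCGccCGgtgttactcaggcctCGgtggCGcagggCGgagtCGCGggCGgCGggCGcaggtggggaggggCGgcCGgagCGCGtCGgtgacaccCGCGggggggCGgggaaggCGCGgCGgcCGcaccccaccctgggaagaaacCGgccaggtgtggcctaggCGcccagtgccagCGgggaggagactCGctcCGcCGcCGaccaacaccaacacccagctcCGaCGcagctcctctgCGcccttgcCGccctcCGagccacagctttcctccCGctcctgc
CEND1: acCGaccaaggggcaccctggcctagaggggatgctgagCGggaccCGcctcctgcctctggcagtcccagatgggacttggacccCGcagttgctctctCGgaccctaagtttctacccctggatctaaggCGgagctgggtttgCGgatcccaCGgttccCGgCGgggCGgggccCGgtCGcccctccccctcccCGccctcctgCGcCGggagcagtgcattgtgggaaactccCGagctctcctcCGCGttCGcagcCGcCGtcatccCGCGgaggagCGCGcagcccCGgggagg
CGREF1: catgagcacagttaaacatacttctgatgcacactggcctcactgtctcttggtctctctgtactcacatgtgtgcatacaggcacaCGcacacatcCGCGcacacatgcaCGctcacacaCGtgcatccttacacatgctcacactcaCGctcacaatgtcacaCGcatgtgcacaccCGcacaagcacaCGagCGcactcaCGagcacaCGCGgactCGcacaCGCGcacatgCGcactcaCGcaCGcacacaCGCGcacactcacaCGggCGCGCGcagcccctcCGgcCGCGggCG
CCR2: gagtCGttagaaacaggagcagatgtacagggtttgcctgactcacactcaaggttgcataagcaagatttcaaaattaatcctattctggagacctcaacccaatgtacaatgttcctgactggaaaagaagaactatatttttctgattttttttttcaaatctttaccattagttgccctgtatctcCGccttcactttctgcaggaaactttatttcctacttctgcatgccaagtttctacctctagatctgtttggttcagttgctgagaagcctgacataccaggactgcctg

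Most plasma cell identity genes fell in MM1.S, and in JJN3 they were split between rises, falls and changes that did not pass. Of 23 tested genes of plasma cell identity and myeloma surface antigens, the difference passed above 0 for 16 (background 18.9%) and below 0 for 0 (background 14.4%), with a median log2 difference of 1.76, against 0.03 over all genes tested. In JJN3 5 of them rose and 6 fell, with a median log2 fold change of 0.05; in MM1.S 1 rose and 17 fell, with a median of -1.87. TNFRSF17, the receptor BCMA through which plasma cells receive survival signals, had 61.0, 52.7 and 59.1 CPM with panobinostat, against 114, 66.7 and 99.9 CPM with vehicle in JJN3. In MM1.S it had 3.39, 4.17 and 4.10 CPM with panobinostat, against 521, 473 and 422 CPM with vehicle. The groups did not overlap in either line, and the fall was far deeper in MM1.S: the difference was 6.21 ± 0.28 (SE) on the log2 scale (edgeR adjusted p = 5.86e-16), and the gene also lay above the slope by 1.62 ± 0.19. The separate list of plasma cell and B cell transcription factors was mixed: of 24 tested, 8 rose and 6 fell in JJN3, 10 rose and 10 fell in MM1.S, and the difference passed above 0 for 10 and below 0 for 4, with a median of 0.05. Its members POU2AF1, XBP1 and PRDM1 were among the 10 above 0, SPIB, described below, was among the 4 below, and IRF4 passed in neither direction. POU2AF1, the B cell coactivator of octamer-binding factors, had 223, 258 and 267 CPM with panobinostat, against 335, 294 and 332 CPM with vehicle in JJN3. MM1.S cells had 17.4, 18.6 and 16.6 CPM with panobinostat, against 349.9, 377 and 397 CPM with vehicle. Its difference was 4.06 ± 0.19 (adjusted p = 5.53e-16), with a modest fall in JJN3 beside a deep one in MM1.S. XBP1, which drives the secretory programme of plasma cells, averaged 505 ± 37.1 CPM with panobinostat and 853 ± 32.7 CPM with vehicle in JJN3. MM1.S cells averaged 169 ± 28.7 CPM with panobinostat and 2487 ± 139 CPM with vehicle, a difference of 3.13 ± 0.15 (adjusted p = 5.86e-16).

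SDC1 (CD138), the surface proteoglycan used to identify plasma cells, averaged 62 ± 4.42 CPM with panobinostat and 106 ± 8.59 CPM with vehicle in JJN3. MM1.S cells averaged 87.8 ± 17.8 CPM with panobinostat and 1145 ± 26.9 CPM with vehicle (difference 2.93 ± 0.18, adjusted p = 9.57e-14). MZB1, a chaperone of immunoglobulin folding, averaged 141 ± 30.6 CPM with panobinostat and 249 ± 7.35 CPM with vehicle in JJN3. MM1.S cells averaged 28.2 ± 5.97 CPM with panobinostat and 541 ± 26.2 CPM with vehicle (difference 3.44 ± 0.20, adjusted p = 3.11e-14). The panobinostat level of SDC1 was thus similar in the lines although its vehicle level was not. PRDM1, the repressor that completes plasma cell differentiation, had 70.4, 54.9 and 62.4 CPM with panobinostat, against 46.9, 43.6 and 50.7 CPM with vehicle in JJN3, a change that did not pass (adjusted p = 0.122), and 33.7, 82.1 and 63.4 CPM with panobinostat, against 227, 227 and 256 CPM with vehicle in MM1.S. The difference was 2.39 ± 0.28 (adjusted p = 1.58e-07). IRF4, the factor on which myeloma cells depend, differed from these genes in that it fell by similar amounts in both lines. It fell to 120.2, 102 and 118 CPM against 190.0, 181 and 259 CPM in JJN3 vehicle, and to 140.1, 174 and 185 CPM against 286, 313 and 294 CPM in MM1.S vehicle. Its log2 fold changes were -0.89 ± 0.14 in JJN3 and -0.84 ± 0.14 in MM1.S, a difference of -0.05 ± 0.19 that did not pass (adjusted p = 0.887), and relative to the slope it lay lower in JJN3 by 0.61 ± 0.15 (adjusted p = 0.005). In the libraries with CX-5461 the IRF4 difference passed, at -0.98 (adjusted p = 0.000282).

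Most genes of the list of MAF factors and targets also fell in MM1.S. Of 19 tested, 2 rose and 5 fell in JJN3 and 4 rose and 13 fell in MM1.S, and 12 differences passed above 0 (background 18.9%) and 3 below (14.4%), with medians of -0.03 for the log2 fold change in JJN3 and -1.54 in MM1.S. MAF itself had 432, 565 and 389 CPM with panobinostat, against 431, 638 and 367 CPM with vehicle in JJN3. MM1.S cells had 35.5, 73.4 and 58.8 CPM with panobinostat, against 289.9, 307 and 307 CPM with vehicle. The JJN3 groups overlapped and the MM1.S groups did not (difference 2.37 ± 0.33, adjusted p = 8.6e-06). ITGB7, an integrin subunit of adhesion to stroma and a known MAF target, had 611, 579 and 853 CPM with panobinostat, against 481, 455 and 611 CPM with vehicle in JJN3, where the groups overlapped. In MM1.S it had 1837, 1895 and 2061 CPM with panobinostat, against 14518, 15727 and 13856 CPM with vehicle. The difference was 3.33 ± 0.22 (adjusted p = 1.6e-12). CCND2, the cyclin that MAF raises, fell in both lines, averaging 434 ± 127 CPM with panobinostat and 735 ± 92.9 CPM with vehicle in JJN3. MM1.S cells averaged 186 ± 16.2 CPM with panobinostat and 1188 ± 45.1 CPM with vehicle. Its difference of 1.91 ± 0.22 passed (adjusted p = 1.11e-07), whereas its distance of 0.14 ± 0.17 from the slope did not (adjusted p = 0.677). NUAK1, a kinase on the same list, averaged 47.4 ± 6.17 CPM with panobinostat and 65.3 ± 10.8 CPM with vehicle in JJN3. MM1.S cells averaged 6.42 ± 2.13 CPM with panobinostat and 69.4 ± 8.10 CPM with vehicle. The 3 genes below 0 included AHNAK, a large scaffold protein, at 345 ± 73.7 CPM with panobinostat and 362 ± 79.5 CPM with vehicle in JJN3. MM1.S cells averaged 16.3 ± 1.92 CPM with panobinostat and 2.95 ± 1.52 CPM with vehicle.

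Of 13 tested chemokines and their receptors, 3 rose and 4 fell in JJN3 and 1 rose and 7 fell in MM1.S, and the difference passed above 0 for 6 and below 0 for 1. CCR2, a receptor for monocyte chemoattractant proteins, had 200.2, 170.1 and 230.1 CPM with panobinostat, against 151, 116 and 183 CPM with vehicle in JJN3. MM1.S cells had 0.798, 2.26 and 1.31 CPM with panobinostat, against 69.2, 71.7 and 59.0 CPM with vehicle. The MM1.S groups lay far apart while the JJN3 groups overlapped; the difference was 5.88 ± 0.36 and the distance above the slope 2.25 ± 0.21 (adjusted p = 1.47e-12 and 6.75e-08). CCR1, the neighbouring receptor for CCL3 and related ligands, averaged 83.0 ± 12.1 CPM with panobinostat and 138 ± 25.4 CPM with vehicle in JJN3. MM1.S cells averaged 7.28 ± 2.31 CPM with panobinostat and 222 ± 13.3 CPM with vehicle (difference 4.17 ± 0.35, adjusted p = 2.24e-09). Among other genes with large differences, CRYBB1, a gene of a lens crystallin, had 31.0, 33.6 and 34.8 CPM with panobinostat, against 51.9, 51.2 and 45.5 CPM with vehicle in JJN3. MM1.S cells had 1.80, 2.96 and 1.12 CPM with panobinostat, against 105, 78.2 and 121 CPM with vehicle (difference 5.09 ± 0.31, adjusted p = 1.03e-13). QPCT, the enzyme that forms N-terminal pyroglutamate on peptides, moved in opposite directions. It had 1.71, 1.51 and 1.55 CPM with panobinostat, against 0.400, 0.721 and 0.455 CPM with vehicle in JJN3, a rise at low level, and 19.2, 41.7 and 26.3 CPM with panobinostat, against 490.2, 473 and 437 CPM with vehicle in MM1.S (difference 5.56 ± 0.62, adjusted p = 3.76e-08).

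**Figure D2:**
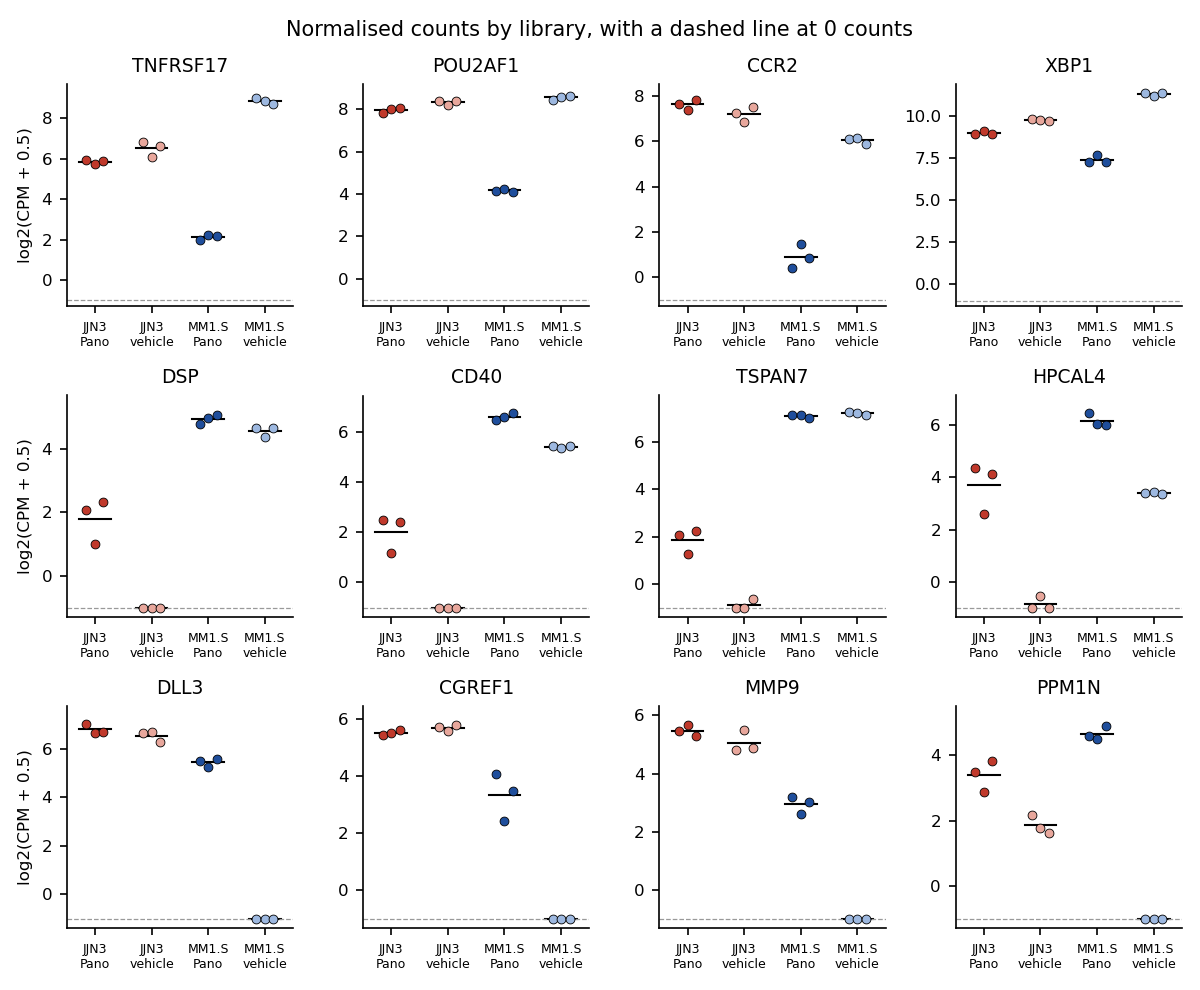
Normalised counts of 12 genes in each library as log2(CPM + 0.5), with 3 libraries a group, a bar at the group mean, and a dashed line at 0 counts. The top row holds genes that fell in MM1.S (TNFRSF17 at 3.89 CPM with panobinostat), the middle row genes at or near 0 in JJN3 vehicle, and the bottom row genes at 0 in MM1.S vehicle.

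Another group of genes was at or near 0 in vehicle in 1 line and expressed in the other. Such genes were counted in each line, by a split chosen after the data were seen: at most 3 counts over the 3 vehicle libraries of the line and at least 1 CPM in vehicle of the other line. JJN3 had 477 such genes, of which 122 rose with panobinostat in JJN3 (25.6%, against 17.7% of all genes tested). MM1.S had 437, of which 186 rose in MM1.S (42.6%, against 34.1%). A gene at or near 0 cannot fall, so a higher share of rises is in part set by the split. Of the 122 genes in JJN3, 73 also rose and 11 fell in MM1.S, and 59 had a difference that passed. Of the 186 in MM1.S, 61 also rose and 12 fell in JJN3, and 125 had a difference that passed. The levels reached were low: a median of 1.01 CPM in JJN3 with panobinostat, against 3.22 CPM in MM1.S vehicle for the 122 genes, and 1.27 CPM in MM1.S with panobinostat, against 3.81 CPM in JJN3 vehicle for the 186. In the libraries with CX-5461, 110 of the 122 (90.2%) and 139 of the 186 (74.7%) again rose.

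DSP, CD40 and TSPAN7 rose from or near 0 counts in JJN3 and were already expressed in MM1.S vehicle. DSP, the desmosomal plaque protein desmoplakin, had 3.75, 1.51 and 4.47 CPM with panobinostat, against 0, 0 and 0 CPM with vehicle in JJN3. Over its 0 counts in vehicle this was at least 19.0-fold higher against a limit of 3 counts over the group. In MM1.S it had 26.9, 30.8 and 33.2 CPM with panobinostat, against 24.5, 20.3 and 24.6 CPM with vehicle, a change that did not pass (adjusted p = 0.132), and the difference was at least 3.86 on the log2 scale (edgeR adjusted p = 1.37e-05). CD40, the costimulatory receptor of B cells, had 5.12, 1.72 and 4.86 CPM with panobinostat, against 0, 0 and 0 CPM with vehicle in JJN3, at least 23.0-fold higher. It rose in MM1.S too, to 87.2, 94.6 and 107 CPM against 42.1, 40.4 and 43.0 CPM in vehicle, and the difference was at least 3.32 (adjusted p = 1.44e-05). TSPAN7, a tetraspanin, had 3.75, 1.94 and 4.27 CPM with panobinostat, against 0, 0 and 0.152 CPM with vehicle in JJN3, a ratio of 58.0-fold (95% counting interval 9.97 to 2335) from a single vehicle count. Its MM1.S level of 139 ± 6.59 CPM with panobinostat and 149.6 ± 6.02 CPM with vehicle was a change that did not pass (adjusted p = 0.49). In each of these genes the JJN3 level with panobinostat stayed far below that of MM1.S, and the JJN3 panobinostat library 2 was the lowest of its group.

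Several members of this set are best known from neurons. HPCAL4, a neuronal calcium sensor, had 20.0, 5.6 and 17.1 CPM with panobinostat, against 0, 0.180 and 0 CPM with vehicle in JJN3, with 1 count in all of vehicle, a ratio of 253-fold (95% counting interval 44.9 to 10032). It also rose in MM1.S, to 88.6, 65.2 and 65.1 CPM against 10.1, 10.5 and 9.75 CPM in vehicle (difference 4.65 ± 1.02, adjusted p = 0.000907; 6.5 without the JJN3 vehicle library 2). CEND1, a regulator of neuronal cell cycle exit, had 6.14, 1.94 and 5.44 CPM with panobinostat, against 0, 0.180 and 0.152 CPM with vehicle in JJN3, a ratio of 40.0-fold (95% counting interval 10.7 to 336), and averaged 82.9 ± 6.75 CPM with panobinostat and 50.3 ± 7.25 CPM with vehicle in MM1.S (difference 4.34 ± 0.66, adjusted p = 5.75e-06). BEX2, a brain-expressed gene of the X chromosome, had 5.80, 6.03 and 5.25 CPM with panobinostat, against 0.200, 0.180 and 0 CPM with vehicle in JJN3, a ratio of 48.7-fold (95% counting interval 13.1 to 409), and averaged 31.9 ± 3.44 CPM with panobinostat and 12.7 ± 2.96 CPM with vehicle in MM1.S (difference 4.03 ± 0.58, adjusted p = 2.19e-06). BIN1, a membrane-bending adaptor that also binds MYC, had 3.58, 3.66 and 5.83 CPM with panobinostat, against 0.400, 0 and 0 CPM with vehicle in JJN3. MM1.S cells had 19.4, 14.1 and 15.3 CPM with panobinostat, against 4.69, 7.43 and 7.60 CPM with vehicle. Its difference of 3.67 ± 0.77 rests on 2 vehicle counts in JJN3, a ratio there of 37.2-fold (95% counting interval 9.92 to 314), and without the JJN3 vehicle library 1 it was 6.32. CTTNBP2NL, a relative of the cortactin-binding protein CTTNBP2, is outside this set because its mean in MM1.S vehicle was under 1 CPM. It rose in both lines, to 7.16, 2.58 and 9.33 CPM against 0 counts in JJN3 vehicle and to 24.7, 23.8 and 22 CPM against 1.39, 0.219 and 0.661 CPM in MM1.S vehicle. Its difference did not pass (adjusted p = 0.0873), although it passed without the JJN3 panobinostat library 2 (adjusted p = 0.0266) and lay above the slope with all libraries (adjusted p = 8.55e-05).

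The reverse set comprised genes with 0 counts in MM1.S vehicle that JJN3 already expressed. DLL3, a Notch ligand that acts mostly as an inhibitor, had 132, 101 and 105 CPM with panobinostat, against 100.5, 104 and 78.5 CPM with vehicle in JJN3. In MM1.S it had 44.9, 37.7 and 48.3 CPM with panobinostat, against 0, 0 and 0 CPM with vehicle, at least 237-fold higher against 3 counts over the group. The JJN3 groups overlapped, and the difference was -7.63 at the 3-count limit (adjusted p = 2.55e-14). MAFA, a relative of MAF best known from pancreatic beta cells, had 100.1, 68.7 and 60.4 CPM with panobinostat, against 73.5, 49.2 and 49.2 CPM with vehicle in JJN3. MM1.S cells had 12.6, 6.95 and 12.5 CPM with panobinostat, against 0, 0 and 0 CPM with vehicle, at least 57.5-fold higher there (adjusted p of the difference 1.96e-06). MMP9, a matrix metalloprotease, had 43.1, 50.6 and 38.9 CPM with panobinostat, against 27.8, 44.5 and 29.2 CPM with vehicle in JJN3. MM1.S cells had 8.58, 5.56 and 7.65 CPM with panobinostat, against 0, 0 and 0 CPM with vehicle, at least 39.3-fold higher there (adjusted p of the difference 2.64e-08). CGREF1, a secreted protein with EF-hand motifs, had 43.1, 45.6 and 48.6 CPM with panobinostat, against 52.7, 47.6 and 55.6 CPM with vehicle in JJN3. MM1.S cells had 16.4, 4.87 and 10.6 CPM with panobinostat, against 0, 0 and 0 CPM with vehicle, at least 56.5-fold higher there. In none of these genes did the JJN3 change pass. With panobinostat, the MM1.S level of each stayed below that of JJN3.

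PPM1N, a member of the metal-dependent phosphatase family, was the exception in that it rose in both lines. It had 10.7, 6.89 and 13.8 CPM with panobinostat, against 4.0, 2.88 and 2.58 CPM with vehicle in JJN3. MM1.S cells had 23.3, 22.1 and 29.3 CPM with panobinostat, against 0, 0 and 0 CPM with vehicle, at least 136-fold higher, so that its MM1.S level passed that of JJN3 (adjusted p of the difference 7.13e-09). The receptor tyrosine kinase EPHB2 averaged 20.4 ± 5.11 CPM with panobinostat and 17.7 ± 7.0 CPM with vehicle in JJN3, and 5.08 ± 1.25 CPM with panobinostat and 0 with vehicle in MM1.S, at least 27.4-fold higher. TBC1D16, a Rab GTPase-activating protein, averaged 36.9 ± 3.89 CPM with panobinostat and 31.1 ± 3.73 CPM with vehicle in JJN3, and 3.82 ± 1.31 CPM with panobinostat and 0 with vehicle in MM1.S, at least 20.7-fold higher. ARRDC2, an arrestin-like adaptor, averaged 12.9 ± 2.39 CPM with panobinostat and 18.8 ± 3.58 CPM with vehicle in JJN3, and 2.07 ± 1.18 CPM with panobinostat and 0 with vehicle in MM1.S, at least 11.2-fold higher. All 3 differences passed below 0 (adjusted p = 0.000232, 4.06e-07 and 4.74e-06). The gene BIN2 gives the other limit: it had 0 counts in all 6 JJN3 libraries and averaged 71.8 ± 8.16 CPM with panobinostat and 212 ± 9.01 CPM with vehicle in MM1.S, and PCP4, also at 0 in JJN3, averaged 54.9 ± 11.1 CPM with panobinostat and 258 ± 46.8 CPM with vehicle there. CDKN2C, which encodes the CDK inhibitor p18, had 0 counts in all 6 MM1.S libraries and rose in JJN3, averaging 174 ± 20.4 CPM with panobinostat and 107 ± 18.4 CPM with vehicle. No difference between the lines can be given for these 3 genes.

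Opposite calls in the lines were rare. Of 12872 genes tested, 172 rose in JJN3 and fell in MM1.S (1.34%) and 57 fell in JJN3 and rose in MM1.S (0.443%), with the difference passing in each. With the replicate number as a block these counts were 280 and 132. Single libraries moved them: the first was 109 without the JJN3 vehicle library 2 or 3 and 113 without the JJN3 panobinostat library 3, and the second was 30 without the JJN3 panobinostat library 1. In the libraries with CX-5461, 201 of the 229 genes kept both signs, without regard to the test. BCL2, the apoptosis inhibitor, was the best known member: it had 245, 197 and 243 CPM with panobinostat, against 164, 159 and 152 CPM with vehicle in JJN3. MM1.S cells had 21.1, 35.6 and 30.2 CPM with panobinostat, against 67.6, 75.2 and 66.1 CPM with vehicle. The groups of neither line overlapped, and the difference was 1.78 ± 0.21 (adjusted p = 6.58e-08).

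The genes with the largest change in the lesser-moving line mostly stood low in 1 line. CBLN2, a secreted organiser of synapses, had 4.77, 2.37 and 4.66 CPM with panobinostat, against 0.400, 0.541 and 0.304 CPM with vehicle in JJN3. MM1.S cells had 2.59, 4.0 and 5.22 CPM with panobinostat, against 20.0, 15.7 and 19.8 CPM with vehicle. With panobinostat both lines thus had about the same level, reached by a rise in JJN3 and a fall in MM1.S (difference 5.45 ± 0.48, adjusted p = 2.73e-10). RAB36, a Rab GTPase of late endosomes and Golgi, had 1.36, 0.646 and 1.75 CPM with panobinostat, against 0.400, 0.180 and 0.152 CPM with vehicle in JJN3. MM1.S cells had 3.79, 8.35 and 6.53 CPM with panobinostat, against 73.9, 73.4 and 78.8 CPM with vehicle (difference 5.92 ± 0.60, adjusted p = 4.69e-09). SASH3, a lymphocyte adaptor, averaged 0.986 ± 0.480 CPM with panobinostat and 0.168 ± 0.154 CPM with vehicle in JJN3, on 16 and 3 counts, a ratio of 5.84-fold (95% counting interval 1.67 to 31.3), and 4.79 ± 1.12 CPM with panobinostat and 40.7 ± 3.42 CPM with vehicle in MM1.S. The JJN3 rises of RAB17 and TRPV3 and of NSG2 and WNK2 rested on at most 18 counts. For RAB17, with 3 counts in JJN3 vehicle, the ratio was 5.47-fold (95% counting interval 1.55 to 29.5). IFI27L2, an interferon-inducible relative of IFI27, rested on single libraries: it had 25.2, 1.94 and 2.91 CPM with panobinostat, against 1.20, 0.721 and 0.607 CPM with vehicle in JJN3. MM1.S cells had 0.399, 0.869 and 0.746 CPM with panobinostat, against 20.9, 0.874 and 0.496 CPM with vehicle. Without the MM1.S vehicle library 1 its difference was 3.51 and did not pass (adjusted p = 0.17), and it was -1.05 in the libraries with CX-5461.

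In the reverse direction, CHD3, an ATPase of the NuRD complex in which HDAC1 and HDAC2 act, had 43.8, 39.8 and 44.5 CPM with panobinostat, against 102, 77.0 and 95.2 CPM with vehicle in JJN3. MM1.S cells had 7.78, 8.0 and 7.46 CPM with panobinostat, against 4.0, 2.62 and 2.48 CPM with vehicle. The groups were apart in both lines, and the difference was -2.43 ± 0.32 (adjusted p = 5.09e-07). LRFN4, a synaptic adhesion molecule, had 17.6, 33.6 and 17.5 CPM with panobinostat, against 33.4, 55.0 and 47.1 CPM with vehicle in JJN3. MM1.S cells had 6.58, 7.82 and 8.02 CPM with panobinostat, against 0.696, 0.656 and 1.65 CPM with vehicle (difference -3.82 ± 0.51, adjusted p = 1.43e-06); its JJN3 groups overlapped by 1 library. TNFAIP2, a protein induced by tumour necrosis factor, had 4.09, 5.38 and 4.86 CPM with panobinostat, against 12.6, 14.2 and 15.8 CPM with vehicle in JJN3. MM1.S cells had 1.80, 1.22 and 3.17 CPM with panobinostat, against 0, 0.437 and 0 CPM with vehicle, where 2 counts stood in vehicle, a ratio there of 16.8-fold (95% counting interval 4.29 to 144) (difference -5.42 ± 0.70, adjusted p = 3.69e-07; -8.22 without the MM1.S vehicle library 2). SPIB, a B cell ETS factor, averaged 2.56 ± 0.167 CPM with panobinostat and 7.60 ± 2.66 CPM with vehicle in JJN3. MM1.S cells averaged 1.27 ± 1.22 CPM with panobinostat and 0.189 ± 0.176 CPM with vehicle. With 3 counts in its vehicle, the MM1.S ratio was 6.77-fold (95% counting interval 2.01 to 35.6). KISS1R, the kisspeptin receptor, averaged 40.5 ± 9.74 CPM with panobinostat and 79 ± 26.5 CPM with vehicle in JJN3 and 1.49 ± 0.488 CPM with panobinostat in MM1.S, where vehicle had 0 counts, at least 8.12-fold higher there. TNFRSF18 (GITR), a costimulatory receptor, averaged 30.1 ± 6.34 CPM with panobinostat and 60.2 ± 8.50 CPM with vehicle in JJN3 and reached 0.382 ± 0.212 CPM with panobinostat in MM1.S on 6 counts. All 6 of these genes stood higher in JJN3 than in MM1.S in either treatment.

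Start regions were matched for 143 of the 172 genes and 47 of the 57. The starts of the genes that rose in JJN3 and fell in MM1.S held a median of 20 CG pairs, those of the reverse set 24, and those of all genes tested 25. Motifs were searched on both strands by their letters alone. The GC box GGGCGG was in 55.9% of the starts of genes that rose in JJN3 and fell in MM1.S, in 63.6% of the reverse set and in 64.9% of all starts of tested genes; the E-box CACGTG was in 14.3%, 10.6% and 9.32%, the TATA box TATAAA in 6.72%, 12.1% and 6.44%, and the AP-1 site TGANTCA in 7.56%, 3.03% and 5.11%. These shares are a description of letters in a 300-base window, and genes with several starts count more than once.

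**Figure D3:**
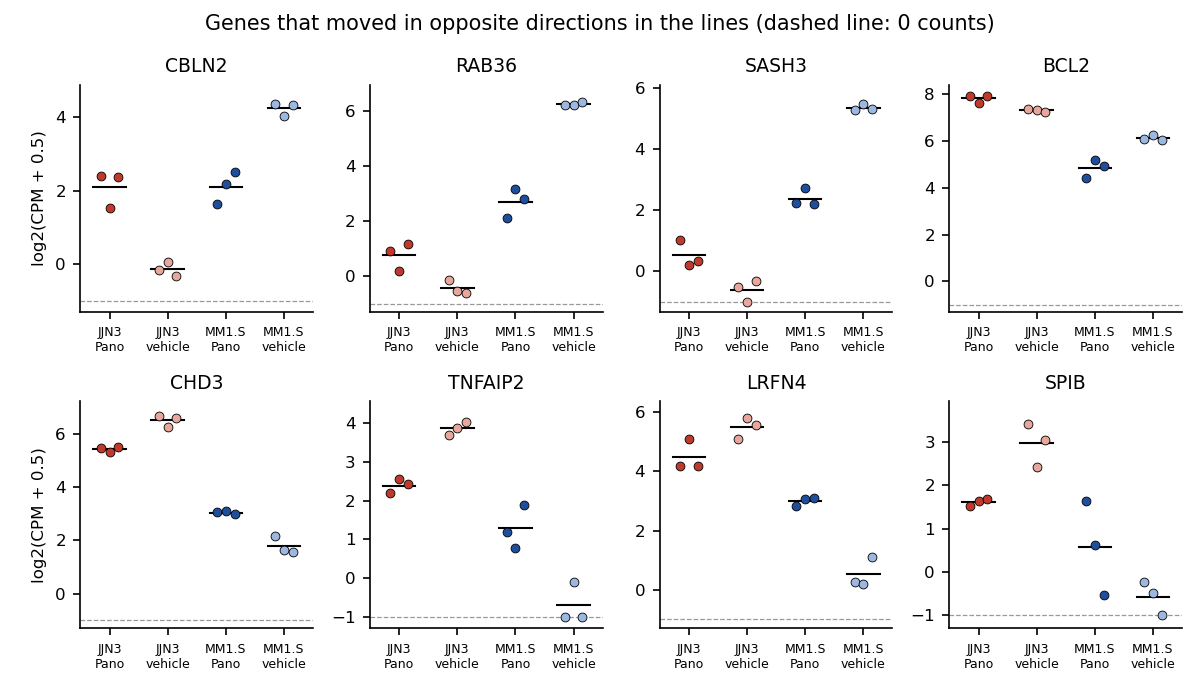
Normalised counts of 8 genes called in opposite directions in the lines, by library, as log2(CPM + 0.5) with a bar at the group mean and a dashed line at 0 counts. In the top row the JJN3 panobinostat libraries lie above JJN3 vehicle while the MM1.S panobinostat libraries lie below MM1.S vehicle. The bottom row shows the reverse by group mean, with the JJN3 groups of LRFN4 overlapping by 1 library. The JJN3 levels of RAB36 and SASH3 stay near 1 CPM.

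Most genes of G2/M and mitosis fell in MM1.S, and 8 of 58 did in JJN3, near the share of falls there over all genes (11.6%). Of 58 tested genes of G2/M and mitosis, 55 differences passed above 0 (background 18.9%) and 0 below 0 (background 14.4%), with a median of 1.33. In JJN3 5 rose (background 17.7%) and 8 fell, and in MM1.S 0 rose (34.1%) and 53 fell (29.7%). The median log2 fold change was -0.05 in JJN3 and -1.42 in MM1.S. Of the 57 members measured in both lines, 23 lay above the slope (background 9.14%). FOXM1, the factor that drives G2/M transcription, had 41.4, 48.0 and 44.7 CPM with panobinostat, against 53.3, 43.8 and 66.4 CPM with vehicle in JJN3. MM1.S cells had 9.18, 10.6 and 12.3 CPM with panobinostat, against 110.1, 93.1 and 105 CPM with vehicle. Its JJN3 groups overlapped, and the difference was 2.97 ± 0.21 (adjusted p = 3.52e-12). AURKB, the kinase of the chromosomal passenger complex, fell in both lines, averaging 317 ± 15.7 CPM with panobinostat and 446 ± 56.9 CPM with vehicle in JJN3. MM1.S cells averaged 48.2 ± 1.47 CPM with panobinostat and 279 ± 9.94 CPM with vehicle (difference 2.04 ± 0.17, adjusted p = 6.45e-11). Of 49 tested genes of DNA replication and G1/S, 2 rose and 16 fell in JJN3 (background of falls 11.6%) and 2 rose and 41 fell in MM1.S. In this list 32 differences passed above 0 and 1 below, but 1 lay above the slope and 1 below it. The median log2 fold changes were -0.41 in JJN3 and -1.42 in MM1.S. FEN1, the flap endonuclease, averaged 258 ± 35.4 CPM with panobinostat and 336 ± 73.5 CPM with vehicle in JJN3. MM1.S cells averaged 123 ± 12.4 CPM with panobinostat and 661 ± 53.8 CPM with vehicle (difference 2.05 ± 0.20). MCM7, a subunit of the replicative helicase, averaged 119 ± 5.39 CPM with panobinostat and 179.9 ± 40.1 CPM with vehicle in JJN3. MM1.S cells averaged 34.0 ± 6.75 CPM with panobinostat and 174 ± 9.61 CPM with vehicle (difference 1.77 ± 0.20).

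CDKN1A, which encodes the CDK inhibitor p21 and is the classical transcript raised by HDAC inhibitors, rose in both lines by amounts that did not differ beyond their error. It had 58.3, 72.5 and 54.6 CPM with panobinostat, against 22.2, 29.2 and 26.6 CPM with vehicle in JJN3. MM1.S cells had 129.7, 87.6 and 110.1 CPM with panobinostat, against 47.3, 38.7 and 51.6 CPM with vehicle. The log2 fold changes were 1.24 ± 0.17 in JJN3 and 1.24 ± 0.16 in MM1.S (adjusted p of the difference 1), and its sign changed with the scaling. In the libraries with CX-5461 the difference was 4.0 (adjusted p = 8.49e-14), with log2 fold changes of 1.58 in JJN3 and -2.42 in MM1.S. CDKN1B (p27) fell in MM1.S and did not pass in JJN3, averaging 189.6 ± 7.92 CPM with panobinostat and 190.1 ± 42.5 CPM with vehicle in JJN3. MM1.S cells averaged 59.5 ± 12.7 CPM with panobinostat and 245 ± 9.28 CPM with vehicle (difference 2.04 ± 0.22, adjusted p = 2.64e-08). Of 46 tested p53 targets, 8 differences passed above 0 (background 18.9%) and 11 below (14.4%), and the median log2 fold change was 0.11 in JJN3 and 0.18 in MM1.S. In the libraries with CX-5461, 29 passed above 0 (background there 19.6%) and 2 below (12.7%). ZMAT3, an RNA-binding p53 target, rose in both lines and more in MM1.S, averaging 47.9 ± 5.35 CPM with panobinostat and 27.4 ± 3.44 CPM with vehicle in JJN3. MM1.S cells averaged 66.4 ± 2.08 CPM with panobinostat and 7.80 ± 0.991 CPM with vehicle (difference -2.28 ± 0.21, adjusted p = 5.74e-10). TNFRSF10B, the TRAIL receptor DR5, averaged 6.85 ± 0.976 CPM with panobinostat and 7.19 ± 0.796 CPM with vehicle in JJN3. MM1.S cells averaged 70.7 ± 9.77 CPM with panobinostat and 20.0 ± 3.5 CPM with vehicle (difference -1.89 ± 0.26, adjusted p = 1.12e-06). The libraries with CX-5461 had a TNFRSF10B difference of -0.02. MDM2, the ubiquitin ligase of p53, averaged 47.0 ± 6.5 CPM with panobinostat and 58.6 ± 5.21 CPM with vehicle in JJN3, a change that did not pass, and fell in MM1.S, averaging 179.9 ± 34.9 CPM with panobinostat and 346 ± 57.4 CPM with vehicle. Its difference was 0.62 ± 0.22 (adjusted p = 0.0265). It did not pass with library size alone (0.49, adjusted p = 0.124), with the stricter filter (adjusted p = 0.068), without the 10 most abundant genes (adjusted p = 0.055) or in DESeq2 (adjusted p = 0.0517). Nor did it pass, at 0.39 to 0.60, without any 1 of the JJN3 vehicle libraries 1, 2 and 3, the JJN3 panobinostat library 3, the MM1.S vehicle libraries 1 and 3 and the MM1.S panobinostat libraries 1 and 2.

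The regulators of apoptosis differed in both directions. Of 11 tested anti-apoptotic BCL2 and IAP genes, 6 differences passed above 0 (background 18.9%) and 2 below (14.4%), with medians of 0.27 in JJN3 and -1.05 in MM1.S; of 11 tested pro-apoptotic BCL2 family genes, 3 passed above and 5 below, with medians of -0.24 and 0.76. BCL2L1 (BCL-XL) had 3.07, 6.67 and 4.86 CPM with panobinostat, against 3.00, 3.60 and 2.88 CPM with vehicle in JJN3. MM1.S cells had 4.79, 5.39 and 6.72 CPM with panobinostat, against 33.4, 35.2 and 35.0 CPM with vehicle. With panobinostat the lines stood at similar levels, while with vehicle JJN3 was the lower (difference 3.20 ± 0.35, adjusted p = 2.01e-08). BIRC5 (survivin), which also acts in mitosis, averaged 200.4 ± 15.4 CPM with panobinostat and 206 ± 9.46 CPM with vehicle in JJN3. MM1.S cells averaged 40.6 ± 3.38 CPM with panobinostat and 207 ± 13.7 CPM with vehicle (difference 2.31 ± 0.19, adjusted p = 8.62e-11). CFLAR (c-FLIP), the inhibitor of caspase-8 activation, averaged 83.5 ± 0.981 CPM with panobinostat and 73.7 ± 11.9 CPM with vehicle in JJN3. MM1.S cells averaged 44.3 ± 14.2 CPM with panobinostat and 148 ± 9.14 CPM with vehicle (difference 1.92 ± 0.22, adjusted p = 3.35e-08). MCL1, a survival factor of plasma cells, rose in MM1.S and did not pass in JJN3, averaging 976 ± 90.1 CPM with panobinostat and 811 ± 115 CPM with vehicle in JJN3. MM1.S cells averaged 1119 ± 49.3 CPM with panobinostat and 611 ± 24.4 CPM with vehicle (difference -0.61 ± 0.15, adjusted p = 0.00213). With CX-5461 in both arms the MCL1 difference was -0.25 and did not pass (edgeR adjusted p = 0.206). Among the pro-apoptotic genes BCL2L11 (BIM) rose in both lines and more in MM1.S, averaging 61.4 ± 2.50 CPM with panobinostat and 44.4 ± 7.18 CPM with vehicle in JJN3. MM1.S cells averaged 147 ± 37.1 CPM with panobinostat and 59.4 ± 4.52 CPM with vehicle (difference -0.83 ± 0.24, adjusted p = 0.00656). BBC3 (PUMA) averaged 282 ± 30.1 CPM with panobinostat and 348 ± 87.7 CPM with vehicle in JJN3. MM1.S cells averaged 136 ± 6.84 CPM with panobinostat and 80.3 ± 12.6 CPM with vehicle (difference -1.07 ± 0.23), and PMAIP1 (NOXA) differed by -1.70 ± 0.36. The differences of BBC3 and PMAIP1 had the opposite sign in the libraries with CX-5461, at 1.03 and 0.98. HRK, a BH3-only protein best known from neurons, rose in JJN3 alone by the calls: it had 3.41, 1.72 and 2.53 CPM with panobinostat, against 0.200, 0 and 0 CPM with vehicle in JJN3. MM1.S cells had 1.20, 0.695 and 0.746 CPM with panobinostat, against 0.696, 1.53 and 0.827 CPM with vehicle (difference 5.2 ± 0.98, adjusted p = 0.000104). The JJN3 ratio, from a single vehicle count, was 44.9-fold (95% counting interval 7.62 to 1816), and without the JJN3 vehicle library 1, which held that count, the fitted difference was 7.06.

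Most genes of ribosome biogenesis fell in both lines. Of 59 tested genes of ribosome biogenesis and the nucleolus, 40 fell and 0 rose in JJN3 and 55 fell and 0 rose in MM1.S, with medians of -0.59 and -1.23. The difference passed above 0 for 28 and below 0 for 1, yet 0 lay above the slope and 4 below it (background 9.14% and 4.17%). MRTO4, a factor of large-subunit assembly, averaged 41.3 ± 5.53 CPM with panobinostat and 77.0 ± 6.27 CPM with vehicle in JJN3. MM1.S cells averaged 9.84 ± 2.16 CPM with panobinostat and 87.1 ± 8.70 CPM with vehicle (difference 2.25 ± 0.22, adjusted p = 3.09e-09). UBTF, the factor that opens ribosomal DNA to RNA polymerase I, averaged 68.7 ± 3.83 CPM with panobinostat and 134 ± 28.1 CPM with vehicle in JJN3. MM1.S cells averaged 32.7 ± 4.01 CPM with panobinostat and 180.5 ± 22.7 CPM with vehicle (difference 1.49 ± 0.21, adjusted p = 1.55e-06). MYC, the driver of these genes, averaged 76.7 ± 11.6 CPM with panobinostat and 132 ± 51.7 CPM with vehicle in JJN3. MM1.S cells averaged 3.54 ± 1.26 CPM with panobinostat and 42.4 ± 9.70 CPM with vehicle (difference 2.78 ± 0.40, adjusted p = 8.9e-06). Other lists of protein production and energy supply fell mainly in MM1.S. Of 61 tested genes of ER folding and secretion, 4 rose and 14 fell in JJN3 and 3 rose and 48 fell in MM1.S, with 27 differences above 0 (background 18.9%) and 0 below (14.4%). Of 33 proteasome genes, 1 rose and 8 fell in JJN3 and 1 rose and 28 fell in MM1.S, with 19 differences above 0 and 0 below. Of 55 nuclear genes of oxidative phosphorylation, 2 rose and 7 fell in JJN3, near the background of falls there (11.6%), and 4 rose and 34 fell in MM1.S, with 22 differences above 0 and 0 below. HSPA5 (BiP), the main chaperone of the endoplasmic reticulum, fell in both lines, averaging 781 ± 284 CPM with panobinostat and 1392 ± 86.9 CPM with vehicle in JJN3. MM1.S cells averaged 699 ± 75.8 CPM with panobinostat and 1681 ± 249 CPM with vehicle, and its difference of 0.43 ± 0.30 did not pass (adjusted p = 0.295). PSMD8, a subunit of the proteasome lid, averaged 244 ± 16.3 CPM with panobinostat and 327 ± 48.7 CPM with vehicle in JJN3. MM1.S cells averaged 131 ± 16.6 CPM with panobinostat and 368 ± 5.87 CPM with vehicle (difference 1.06 ± 0.16, adjusted p = 4.56e-06). The 73 cytosolic ribosomal protein genes, by contrast, had 0 differences above 0 and 1 below by edgeR, and 0 of them changed in JJN3; these genes have many near-identical copies, and how such reads were counted is not given in the sources used here.

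Neuronal and immediate early genes, classes that HDAC inhibition is known to raise, rose in part of their members in both lines. Of 65 neuronal genes 41 were tested, and of these 21 rose (background 17.7%) and 0 fell (11.6%) in JJN3. In MM1.S 32 of the 41 rose (34.1%) and 5 fell (29.7%), and the medians were 1.37 in JJN3 and 3.31 in MM1.S. A gene silent in vehicle passed the count filter only where another group expressed it, and such a gene cannot fall. The shares of rises and falls in this list are thus in part set by the filter. The differences were mixed in sign, 9 above 0 (background 18.9%) and 11 below (14.4%). Of the 22 members measured in both lines, 11 lay above the slope (background 9.14%) and 1 below (4.17%). SYT11, a synaptotagmin, had 62.6, 37.7 and 48.0 CPM with panobinostat, against 5.99, 7.03 and 4.55 CPM with vehicle in JJN3. MM1.S cells had 107, 108 and 103 CPM with panobinostat, against 1.74, 1.75 and 0.661 CPM with vehicle. It rose in both lines, more in MM1.S (difference -3.19 ± 0.37, adjusted p = 4.71e-08). TUBB3, a neuronal beta-tubulin, rose in both lines, averaging 18.1 ± 11.4 CPM with panobinostat and 0.399 ± 0.177 CPM with vehicle in JJN3. MM1.S cells averaged 29.6 ± 8.32 CPM with panobinostat and 0.229 ± 0.267 CPM with vehicle; its difference of -1.38 ± 1.87 did not pass (adjusted p = 0.626). Of 27 tested immediate early and AP-1 genes, 11 rose (background 17.7%) and 0 fell (11.6%) in JJN3. In MM1.S 17 rose (34.1%) and 5 fell (29.7%), and the difference passed above 0 for 5 and below 0 for 12. IER2 had 534, 410.3 and 559.8 CPM with panobinostat, against 289, 297 and 354 CPM with vehicle in JJN3. MM1.S cells had 194, 153 and 169.6 CPM with panobinostat, against 12.3, 11.1 and 10.1 CPM with vehicle (difference -3.26 ± 0.19, adjusted p = 2.8e-14). EGR1, a zinc finger factor, had 57.0, 45.9 and 52.1 CPM with panobinostat, against 35.4, 31.5 and 21 CPM with vehicle in JJN3. MM1.S cells had 33.9, 28.9 and 37.3 CPM with panobinostat, against 0.174, 0.656 and 0 CPM with vehicle (difference -6.14 ± 0.52, adjusted p = 1.69e-10). Both genes stood lower in MM1.S than in JJN3 in either treatment, and rose further in MM1.S. JUN averaged 266 ± 101 CPM with panobinostat and 152 ± 45.0 CPM with vehicle in JJN3. MM1.S cells averaged 693 ± 26.0 CPM with panobinostat and 83.5 ± 21 CPM with vehicle (difference -2.26 ± 0.39), but its difference was -0.32 in the libraries with CX-5461 and did not pass there (adjusted p = 0.573).

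Of 19 tested linker, replacement and variant histone genes, 4 differences passed above 0 (background 18.9%) and 8 below (14.4%), with medians of 0.13 in JJN3 and 1.20 in MM1.S; several have near-identical copies, which makes their values uncertain. H2BC21, a polyadenylated histone H2B gene, averaged 15.9 ± 4.03 CPM with panobinostat and 14.7 ± 4.58 CPM with vehicle in JJN3. MM1.S cells averaged 36.3 ± 7.98 CPM with panobinostat and 2.76 ± 0.655 CPM with vehicle (difference -3.56 ± 0.40, adjusted p = 4.5e-08). Of 36 tested histone deacetylases and corepressors, 4 differences passed above 0 and 10 below, together near the 33.3% of all genes tested, and of 26 tested acetyltransferases, BET proteins and P-TEFb subunits 4 and 5. HDAC1 averaged 192 ± 26.2 CPM with panobinostat and 192 ± 21.2 CPM with vehicle in JJN3. MM1.S cells averaged 211 ± 18.9 CPM with panobinostat and 164 ± 9.65 CPM with vehicle, a difference of -0.36 ± 0.16 that did not pass (adjusted p = 0.0886). It passed under other scalings, at -0.43 with the scaling factors of DESeq2, with the replicate number as a block (adjusted p = 0.0141), and without the JJN3 vehicle library 2, the JJN3 panobinostat library 1, the MM1.S vehicle library 3 or the MM1.S panobinostat library 1 or 2 (-0.51 to -0.45). HDAC3, the catalytic subunit of the NCoR complex, averaged 194 ± 34.6 CPM with panobinostat and 159 ± 18.7 CPM with vehicle in JJN3. MM1.S cells averaged 444 ± 9.74 CPM with panobinostat and 219 ± 1.56 CPM with vehicle (difference -0.73 ± 0.18, adjusted p = 0.00194). With CX-5461 in both arms the HDAC3 difference was -0.42 and did not pass (edgeR adjusted p = 0.0693). HDAC11 rose in both lines, to 8.70, 3.23 and 7.77 CPM against 2.00, 1.44 and 1.37 CPM in JJN3 vehicle and to 19.2, 18.4 and 14.6 CPM against 0.522, 1.31 and 0.661 CPM in MM1.S vehicle (difference -2.35 ± 0.52, adjusted p = 0.00072). HDAC9, another member of the family, rose in JJN3, averaging 70.2 ± 9.90 CPM with panobinostat and 28.3 ± 3.06 CPM with vehicle, and in MM1.S averaged 25.7 ± 14.3 CPM with panobinostat and 39.6 ± 4.38 CPM with vehicle, a change that did not pass (difference 1.92 ± 0.38, adjusted p = 0.000427). HEXIM1, which holds P-TEFb inactive, averaged 136 ± 19.6 CPM with panobinostat and 118 ± 28.3 CPM with vehicle in JJN3. MM1.S cells averaged 115 ± 18.6 CPM with panobinostat and 39.0 ± 3.33 CPM with vehicle (difference -1.37 ± 0.22, adjusted p = 1.24e-05). The metallothionein MT2A rose in both lines, averaging 29.6 ± 12.6 CPM with panobinostat and 1.53 ± 0.518 CPM with vehicle in JJN3. MM1.S cells averaged 594 ± 218 CPM with panobinostat and 2.58 ± 0.744 CPM with vehicle (difference -3.61 ± 0.81, adjusted p = 0.00177). With CX-5461 in both arms the MT2A difference was -1.87 and did not pass (edgeR adjusted p = 0.0566).

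**Figure D4:**
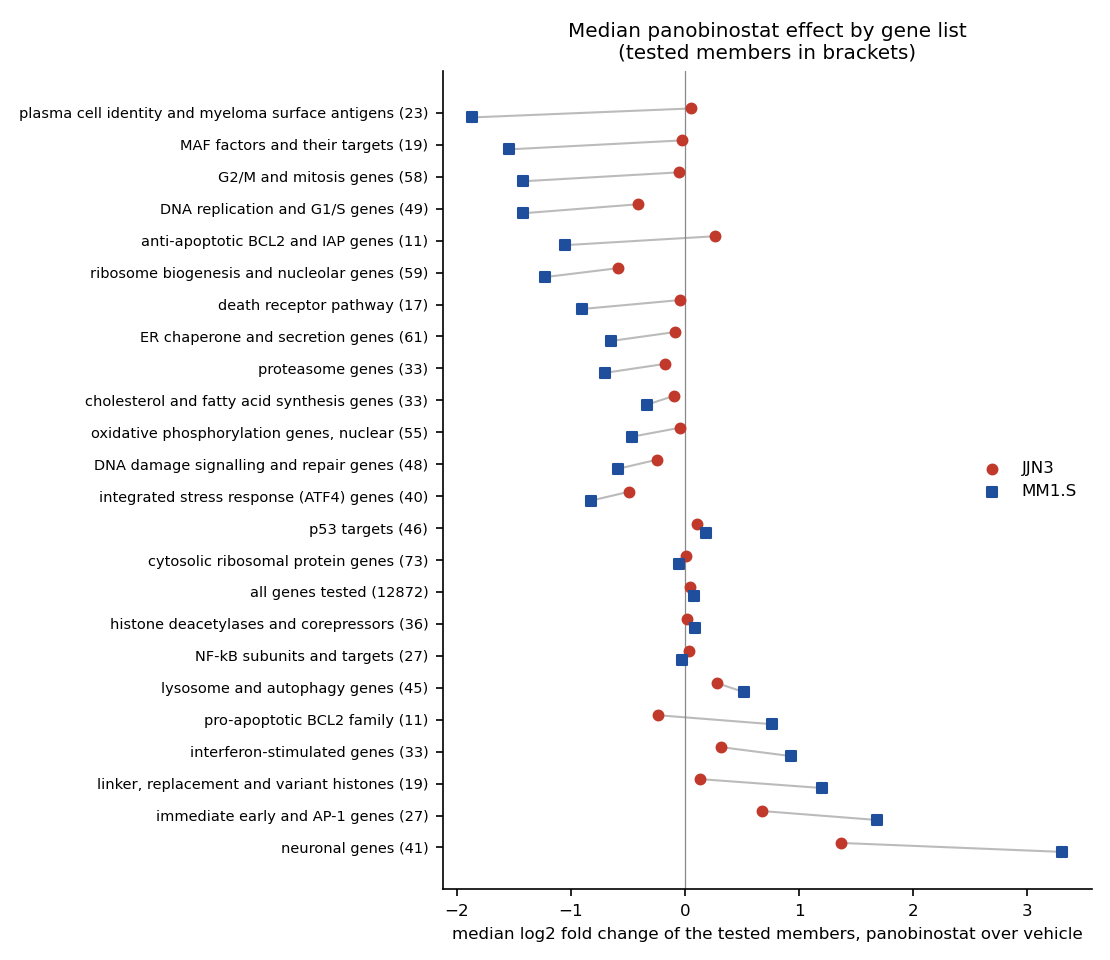
Median log2 fold change of panobinostat over vehicle for the tested members of 23 gene lists and for all 12872 genes tested, in JJN3 (circles) and MM1.S (squares), with the number tested in brackets. Medians of plotted lists below 0 in MM1.S lie nearer 0 in JJN3 (G2/M and mitosis at -0.05 and -1.42), except NF-kB subunits and targets (0.034 in JJN3, -0.024 in MM1.S). Medians of plotted lists above 0 in MM1.S also lie nearer 0 in JJN3 (neuronal genes at 1.37 and 3.31).

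A larger response in JJN3 was the exception. Of genes measured in both lines whose difference passed, 120 rose and 7 fell in JJN3 with a smaller MM1.S log2 fold change of the same sign. Genes whose MM1.S estimate had the other sign are left out of these counts. By the calls, 254 genes changed in JJN3 alone, 200 with a difference above 0 and 54 below, and part of them are among the 120 and 7. The largest of the 120 rises included the genes raised from near 0 described above (CD40, HPCAL4, DSP, BEX2, CEND1 and BIN1). IGSF3, an immunoglobulin superfamily protein, had 2.56, 0.646 and 2.91 CPM with panobinostat, against 0, 0 and 0 CPM with vehicle in JJN3, at least 12-fold higher, and 3.99, 4.69 and 3.17 CPM with panobinostat, against 1.74, 1.31 and 0.827 CPM with vehicle in MM1.S (adjusted p of the difference 0.0106). Its difference was 1.92 in the libraries with CX-5461 and did not pass there (adjusted p = 0.163). The 7 falls included FAM216A, GEMIN5, DDX55, KAT6B, KMT2D and PIP5K1A, and in the libraries with CX-5461 the difference passed for GEMIN5 and KMT2D among these 6. Single libraries decided some of the calls: FAM216A did not pass without the JJN3 vehicle library 1, the JJN3 panobinostat library 1 or 2 or the MM1.S vehicle library 2 (differences of -0.52 to -0.43), and PIP5K1A did not pass without the JJN3 panobinostat library 1 or 2 or the MM1.S vehicle library 1 (differences of -0.43 to -0.36). GEMIN5, a subunit of the SMN complex that assembles spliceosomal particles, had 10.6, 13.6 and 11.3 CPM with panobinostat, against 22, 32.6 and 22.5 CPM with vehicle in JJN3. MM1.S cells had 18.8, 14.8 and 17.2 CPM with panobinostat, against 16.9, 18.8 and 20.8 CPM with vehicle (difference -0.97 ± 0.28, adjusted p = 0.0085). DDX55, an RNA helicase, had 21.3, 22 and 24.9 CPM with panobinostat, against 42.2, 45.8 and 49.8 CPM with vehicle in JJN3. MM1.S cells had 37.1, 34.1 and 31.3 CPM with panobinostat, against 34.8, 39.3 and 38.5 CPM with vehicle (difference -0.88 ± 0.20, adjusted p = 0.000825). In both genes the JJN3 groups were apart and the MM1.S groups overlapped. The histone methyltransferase KMT2D averaged 59.2 ± 9.44 CPM with panobinostat and 109 ± 5.53 CPM with vehicle in JJN3. MM1.S cells averaged 32.1 ± 5.78 CPM with panobinostat and 37.0 ± 4.32 CPM with vehicle (difference -0.68 ± 0.21). The acetyltransferase KAT6B averaged 16.9 ± 4.08 CPM with panobinostat and 32.8 ± 9.29 CPM with vehicle in JJN3. MM1.S cells averaged 22.1 ± 2.39 CPM with panobinostat and 25.4 ± 2.21 CPM with vehicle (difference -0.76 ± 0.26; -0.65 to -0.56 and not passing without the JJN3 vehicle library 2 or the JJN3 panobinostat library 3).

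The other 12 libraries, which share no sample with the main comparison, gave the panobinostat difference in the presence of CX-5461. In each line, CX-5461 at 500 nM with panobinostat was set against CX-5461 alone. For 2 of the JJN3 libraries with CX-5461 alone the treatment tag holds another code name, while their titles and protocols give CX-5461, and they were taken as such. This use of them was chosen after the data were seen. There the difference passed for 4162 genes (32.3%), 2526 above 0 (19.6%) and 1636 below (12.7%), the background for the list counts with CX-5461. Of these genes 2845 had also passed with the same sign without CX-5461, which is 66.4% of the 4284 and 68.4% of the 4162. A further 14 passed in both with opposite signs. Of all 4284 genes, 96.3% had the same sign. Over the genes measured in both lines the slope of the JJN3 change on the MM1.S change was 0.401. The plasma cell list had 16 differences above 0 and 1 below, and the G2/M and mitosis list 53 and 0. TNFRSF17 differed by 4.57 there (adjusted p = 1.7e-12), CCR2 by 5.86 (adjusted p = 1.37e-12) and CBLN2 by 5.36 (adjusted p = 1.61e-10). Other results were not alike in the 2 sets. The p53 target list had 29 differences above 0 and 2 below with CX-5461, against 8 and 11 without it. CDKN1A differed by 4.0 with CX-5461 (edgeR adjusted p = 8.49e-14), and its difference did not pass without it. The ribosome biogenesis list had 9 above 0 (background 19.6%) and 5 below (12.7%) among its 59 members and a median difference of 0.13 with CX-5461. Whether these counts differ between the sets of libraries was not tested.

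**Figure D5:**
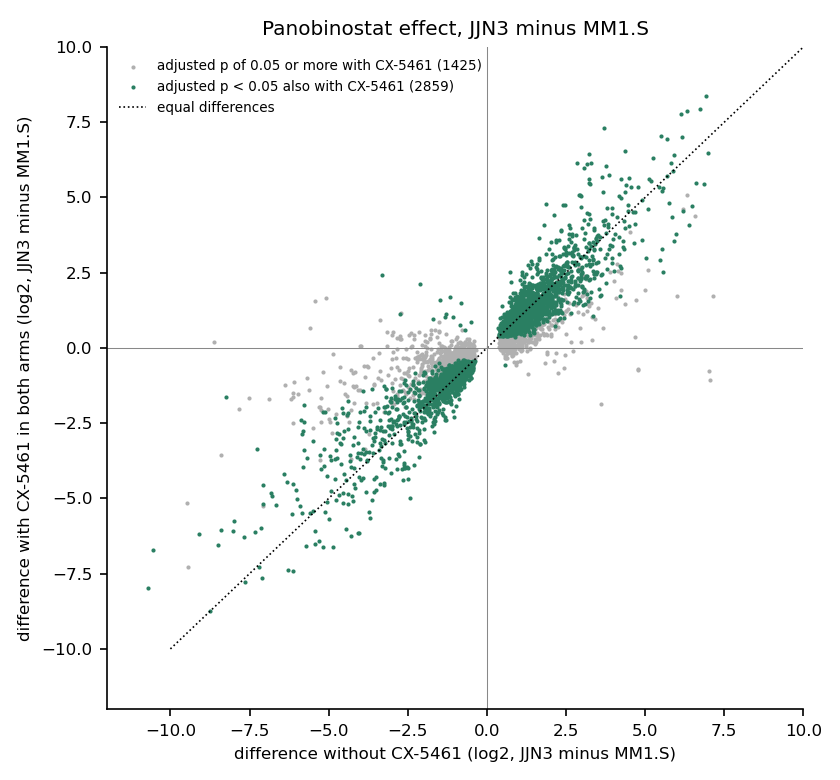
Difference of the panobinostat effect, JJN3 minus MM1.S, on the log2 scale for the 4284 genes called without CX-5461, in the 12 libraries without CX-5461 (horizontal) and the 12 with CX-5461 in both arms (vertical). Green points had an adjusted p under 0.05 in both sets and the dotted line marks equal differences; 96.3% of the points have the same sign on both axes.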

How the data were processed

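The authors deposited raw counts, 1 table per line with whole numbers of reads per gene, per the values and the labels. Tools named in the submitters' processing notes are HISAT2 2.2.1, limma 3.50.0 and featureCounts 2.0.1. They name GRCh37 and hg19 as builds and state no role for either. Not given in the sources used here were how strand and multiply mapped reads were treated and which annotation served, so antisense partners and near-identical copies (histones, metallothioneins, ribosomal proteins) are uncertain.

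The tables were joined by NCBI Gene identifier (28395 in both). Of these, 27745 matched a symbol, and the rest held at most 0.0387% of a library. With edgeR 4.0.16 in R 4.3.3, 1 model held all 24 libraries in 8 groups, which leaves 16 residual degrees of freedom. It used TMM scaling, filterByExpr (minimum count 10), robust dispersions, two-sided quasi-likelihood F test and Benjamini-Hochberg adjustment over 12872 genes, with calls at an adjusted p under 0.05. Standard errors come from the F statistic. The procedure was tested on simulated data, with differences set in genes whose average log2 CPM was at least 3. It called 55 of 100 differences of 1 log2 unit and 94 of 100 differences of 2 log2 units, with 3 unchanged genes called. A difference that did not pass can thus still be of about 1 log2 unit. Where a group had 0 counts the fold is a bound against 3 counts over the group, and with 1 to 3 counts a ratio with a 95% counting interval is given beside the fitted difference. The slope is least squares through the origin.

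Replicates of each group differed by more than sampling noise. Same-numbered JJN3 libraries deviated from their group means together (Pearson's r across genes 0.269, 0.283 and 0.235), so the numbers pair them; those of MM1.S did not (0.021, 0.013 and 0.087). Alternatives were other scalings and filters, DESeq2 1.42.0, limma-voom (limma 3.58.1), the block, other slopes and leaving out each library.

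Genes are named by rule: the 8 largest differences each way among called genes measured in both lines whose average log2 CPM reached 3, the same for the distance from the slope, the 8 opposite changes each way with the largest lesser fold change, 2 members of each list each way by adjusted p, a panel of 40 genes, 5 abundant genes per line with at most 3 counts in the other, and 8 rises and falls larger in JJN3; those described are a part of these. Members, lists and rule were chosen with earlier results of these data known; the split of genes near 0 in vehicle was chosen after the data were seen. Some genes are not reported here.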

Additional observations from a re-analysis of the deposited data

Results flagged for a closer look

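The difference between the lines itself is a test of the 2 effects against each other, and it passed for 2433 genes above 0 and 1851 below 0 in edgeR's quasi-likelihood test, with 172 genes higher in JJN3 and lower in MM1.S and 57 lower in JJN3 and higher in MM1.S. Among genes called in opposite directions, the log2 difference was 7.05 for IFI27L2, 5.47 for SASH3, 5.92 for RAB36, 4.61 for RAB17, 5.45 for CBLN2 and 5.03 for TRPV3. With vehicle counts of 0 in JJN3 set to 3 counts over the group, it was 3.83 for NSG2 and 3.30 for WNK2. In the other direction it was -5.42 for TNFAIP2, -4.19 for SPIB, -2.72 for VWCE, -2.43 for CHD3 and -3.82 for LRFN4. With vehicle counts of 0 in MM1.S set to 3 counts, it was -2.73 for CXCL12, -2.03 for TNFRSF18 and -3.98 for KISS1R. VWCE, a secreted protein with von Willebrand factor C domains, averaged 5.55 ± 1.71 CPM with panobinostat and 14 ± 1.72 CPM with vehicle in JJN3. MM1.S cells averaged 1.61 ± 0.914 CPM with panobinostat and 0.592 ± 0.349 CPM with vehicle (SD, n = 3 each). It differed by 0.29 in the libraries with CX-5461, so its sign did not hold there.

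The 12 libraries with CX-5461 lie outside the main comparison, and the difference passed there for 4162 genes.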

How the results depend on the processing

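The counts of differences in each direction (2433 above 0 and 1851 below) and of changes in each line stayed within 1.5 times under every alternative run, including each library left out, and the block of replicate numbers gave 5269 differences in all, against 4284 without it. The counts beyond the slope and of opposite changes moved more. With the replicate block they were 1499 above and 897 below the slope, 280 genes higher in JJN3 and lower in MM1.S, and 132 lower in JJN3 and higher in MM1.S. The last count was 88 without the 10 most abundant genes and 34 among genes measured at 5 CPM. At least 2-fold changes in each line left 43 and 6 opposite genes. With 1 library left out, the ranges were 648 to 1025 above and 268 to 626 below the slope, 109 to 173 higher in JJN3 and lower in MM1.S, and 30 to 85 for the reverse. The JJN3 libraries behind the low ends were panobinostat library 1 (268 and 30), panobinostat library 3 (648, and 113 of the opposite genes) and vehicle libraries 2 and 3 (109 each). The principal axis gave a slope of 0.403. In the libraries with CX-5461, over the genes measured in those libraries, the slope was 0.445, with 720 genes below it and 92 lower in JJN3 and higher in MM1.S. The causes were not tested.

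For 91 genes named in the text, the difference kept its direction and call in 877 of 903 fits under 10 other settings, lost the call in 11, gained it in 6 and changed sign in 9, all for CDKN1A. In the 1092 fits with 1 library left out, 1059 kept both, 18 lost and 6 gained the call, and 9 changed sign. Of the 91 genes in the libraries with CX-5461, 72 kept both, 10 lost and 4 gained the call and 5 changed sign. The CDKN1A difference, near 0, was -0.067 with DESeq2 size factors, -0.12 with library size alone, -0.051 with no filter, -0.11 with the stricter filter, -0.082 without the 10 most abundant genes, -0.0062 in the fit of 12 libraries, -0.0095 with the block, -0.034 without both JJN3 libraries numbered 2, -0.067 in DESeq2, and -0.23 to 0.048 with 1 library left out. That of IRF4 was -0.26 to 0.033 with 1 library left out. In the libraries with CX-5461 the difference changed sign for IFI27L2 (-1.05), PMAIP1 (0.98), BBC3 (1.03), TUBB3 (1.71) and VWCE (0.29). The block changed the call of HDAC1 and of no other of these genes. A count of 0 allows up to 0.631 CPM in the shallowest library.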
